A study of Mus musculus with 7 samples.

Results

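Transcripts for Hedgehog receptors, co-receptors and ligand traps were followed in C3H10T1/2, a mouse mesenchymal cell line that can be steered toward bone or fat cells. The genes, picked by name for their place at or near the receptor, were Ptch1, Hhip, Boc, Cdon, Gas1, Disp1, Lrp2, Gpc3 and Scube3, and 8 of these 9 had a row among the 18468 genes of the count table. Disp1 was not analysed here. The cells had been kept without serum for 12 h and were then exposed for 48 h to 2 μM purmorphamine, a small molecule that activates Smoothened (Smo) directly (n = 4 libraries), or to 0.02% DMSO as vehicle (n = 3 libraries), with serum absent throughout. No Hedgehog protein is named among the additions to either group. Values below are reads per gene as deposited, which the authors had equalized among libraries by resampling, and each library held between 14337225 and 14342154 of them. Whether the libraries came from separate cultures is not stated, so the p-values measure the spread between these libraries, which may be technical.

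Hedgehog ligands are lipid-modified proteins that leave the producing cell with the help of Dispatched (Disp1) and the secreted Scube proteins. On the receiving cell, Patched (Ptch1) holds Smo inactive until a ligand binds it. Boc, Cdon and Gas1 bind the ligand beside Ptch1 as co-receptors. Hhip binds and sequesters ligand at the surface, and Ptch1 and Hhip are both known targets of the pathway, so that they act as negative feedback. Lrp2 is a large endocytic receptor that can take up Hedgehog ligand, and Gpc3 is a cell surface glypican that competes with Ptch1 for it. Purmorphamine acts on Smo and so enters the pathway below all of these proteins.

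The 250 bases upstream of the transcription start are shown for Ptch1 and Hhip, the pair of feedback genes that rose (RefSeq, GRCm38.p6, each given 5′ to 3′ along its gene, which is on the minus strand). Ptch1 is at chr13:63565736-63565985 and Hhip at chr8:80058009-80058258, and neither stretch holds an annotated exon base in GENCODE M21. The RefSeq start of Ptch1 used here lies inside the longer gene of that annotation. Capitals mark CCACCC, the core of the binding motif of the Gli factors.

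Ptch1: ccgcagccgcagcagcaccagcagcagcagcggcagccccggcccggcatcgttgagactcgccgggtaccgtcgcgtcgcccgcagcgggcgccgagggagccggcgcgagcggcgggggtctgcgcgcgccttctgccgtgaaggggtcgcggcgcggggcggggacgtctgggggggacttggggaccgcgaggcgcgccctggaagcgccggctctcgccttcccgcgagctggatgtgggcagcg
Hhip: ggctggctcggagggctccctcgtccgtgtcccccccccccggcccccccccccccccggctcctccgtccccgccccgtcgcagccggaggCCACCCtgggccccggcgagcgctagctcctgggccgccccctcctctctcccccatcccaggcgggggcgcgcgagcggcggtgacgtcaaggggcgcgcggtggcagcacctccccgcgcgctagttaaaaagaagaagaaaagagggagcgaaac

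The stretches were rich in G and C (78.4% of bases for Ptch1 and 76.0% for Hhip). The Gli motif GACCACCCA, searched on both strands from 250 bases before to 50 bases after the start, was in none of the windows found for 8 of the 9 genes, and it was in 0.253% of the 32851 mouse promoter windows of the same length. The core CCACCC, which lies within that motif, was in 31.5% of all windows. Hhip had it 158 bases before its start and Lrp2 50 bases before its start (as GGGTGG), and the windows of Ptch1, Cdon, Gas1, Disp1, Scube3 and Gpc3 did not have it. No window was found for Boc. Of the 250 bases before the start, annotated exons of any gene covered 250 for Gas1, 168 for Scube3, 36 for Lrp2 and 31 for Cdon. The starts used for Cdon, Scube3 and Lrp2 also lie inside their genes in GENCODE M21. A match is a description of the letters only.

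Under vehicle the cells held far more co-receptor than feedback transcript. In reads per kilobase of exon, a level that can be compared between genes, Gas1 stood at 9297 ± 187 (SD, n = 3 vehicle libraries), Boc at 1281 ± 36.3 and Cdon at 406 ± 2.46. Ptch1 stood at 36.8 ± 1.07 and Scube3 at 38.5 ± 0.558. Gpc3 (1.24 ± 0.936), Lrp2 (0.838 ± 0.216) and Hhip (0.0735 ± 0.0636) were close to the detection limit. Of 12103 genes that passed a filter on low counts and had an exon length, only 22 had a higher level than Gas1 under vehicle, whereas 73.3% were above Ptch1. The levels of Gas1, Boc and Cdon were separated in every vehicle library. The order of Scube3 and Ptch1 depended on the length used, since with the longest transcript in place of all exons Ptch1 was at 50.2 and Scube3 at 49.5 reads per kilobase. Gpc3 and Lrp2 overlapped among the libraries and were not distinguished.

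**Figure D1:**
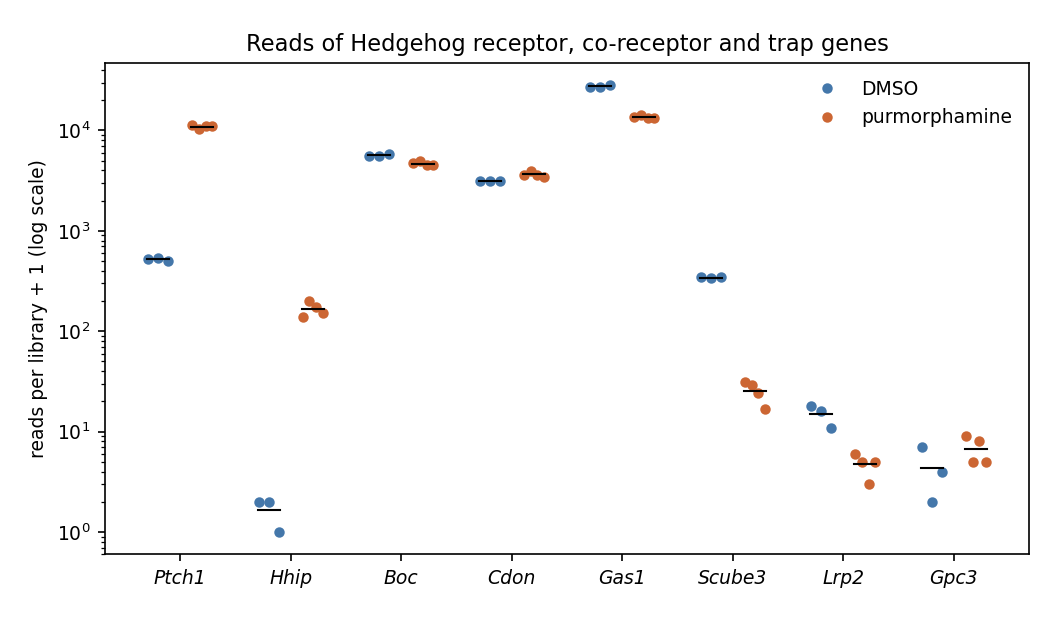
Reads per library (1 added, log scale) for the 8 genes with a row, in 3 DMSO (blue) and 4 purmorphamine (orange) libraries; each point is a library and each bar the group mean. Ptch1 and Hhip moved up by more than an order of magnitude and Scube3 moved down by as much. Gas1 moved down to 0.494 of its vehicle mean in reads, and the groups of Gpc3 overlapped.

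The change was tested with edgeR's quasi-likelihood test over 12388 genes, with calls made where the adjusted p (Benjamini-Hochberg) was under 0.2, the threshold used in the study. At that threshold 31.4% of all genes tested rose and 31.1% fell, so a call by itself sets no gene apart, and the size of each change and the reads are given with it. Of the 8 genes with a row, 6 passed the filter: 3 rose (Ptch1, Hhip and Cdon) and 3 fell (Gas1, Boc and Scube3), and all 6 were also past an adjusted p of 0.05. The share of all genes tested past 0.05 was not counted, so being past it sets no gene apart either. The median log2 fold change of the 6 genes was -0.08, against 0.0038 for all genes tested. Hhip passed the filter through its purmorphamine libraries alone, so its call had to follow and is no support, and without Hhip 2 genes rose of 5. The counts and the median describe the genes that passed, not all that were listed. In the reads as deposited, all 4 purmorphamine libraries were above all 3 vehicle libraries for Ptch1, Hhip and Cdon, as they were for 29.1% of all genes tested, and below for Gas1, Boc and Scube3, as for 20.4%.

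Ptch1, the receptor that restrains Smo (ENSMUSG00000021466, minus strand of chromosome 13, bases 63508328 to 63573598 in GRCm38), went from 528, 532 and 504 reads under vehicle to 11451, 10296, 10973 and 10970 under purmorphamine. The groups were far apart, and the 4 purmorphamine libraries lay within a narrow band. Its mean rose 20.95-fold, from 521 ± 15.1 reads (SD, n = 3) to 10922.5 ± 475 (SD, n = 4) as deposited. After TMM scaling, as in all fitted values here, the log2 fold change was 4.34 (95% interval 4.22 to 4.47, adjusted p = 6.39e-18 from edgeR). Among the 296 other genes with at least as high a mean level in CPM (reads scaled to a common library size), the largest log2 fold change was 2.24. This was that of Egfr, which is named because its value was seen to be the highest. The mean was taken over the libraries of both groups, and Ptch1 reached it through its purmorphamine libraries. Under vehicle 73.3% of genes were above Ptch1 per kilobase. These 296 genes were thus picked by a level that includes the rise of Ptch1, so its place among them is no support. Over all 12388 genes tested, 22 rose at least as far as Ptch1, Ptch1 included. Under purmorphamine 6.06% of genes were above Ptch1 per kilobase.

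Hhip, the ligand trap (ENSMUSG00000064325, minus strand of chromosome 8, bases 79965851 to 80058006), had 1, 1 and 0 reads under vehicle. Under purmorphamine it had 139, 197, 173 and 152 reads. A vehicle level this low was not distinguishable from 0, so the change was bounded against a floor of 3 reads a library, which made Hhip at least 55.1-fold higher. Even then its level per kilobase, 18.2 ± 2.80, was small beside the 770.0 ± 33.5 of Ptch1. The exons of Hhip share 175 bases with Gm27820 on the opposite strand, and only sense reads had been counted.

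Gas1, a co-receptor anchored to the membrane by a lipid (ENSMUSG00000052957, minus strand of chromosome 13, bases 60174405 to 60177365, a single exon), had 27306, 27119 and 28158 reads under vehicle and 13489, 14119, 13373 and 13402 under purmorphamine. The groups were far apart beside the spread within each. The mean fell from 27528 ± 554 to 13596 ± 352 reads, which is 0.494 of the vehicle mean in reads as deposited. The fitted log2 fold change, after TMM scaling, was -1.06 (95% interval -1.16 to -0.97, adjusted p = 4.15e-12 from edgeR). Of the 51 other genes with as high a mean CPM, only 2, Ptn and Thbs1, fell as far (named after their values were seen). Over all 12388 genes tested, 393 fell at least as far as Gas1, Gas1 included. Gas1 took 0.192% of all reads under vehicle and 0.0948% under purmorphamine, and remained the most abundant of the 8 genes.

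Boc, a co-receptor of the immunoglobulin superfamily (ENSMUSG00000022687, minus strand of chromosome 16, bases 44485049 to 44558897), had 5600, 5617 and 5888 reads under vehicle and 4737, 4949, 4480 and 4569 under purmorphamine. The fall was small but larger than the spread between libraries, to 0.821 of the vehicle mean in deposited reads (fitted log2 fold change -0.33, 95% interval -0.43 to -0.23, adjusted p = 1.7e-05 from edgeR). Cdon, the closely related co-receptor (ENSMUSG00000038119, plus strand of chromosome 9, bases 35421128 to 35507652), went the other way. It had 3112, 3131 and 3150 reads under vehicle and 3620, 3920, 3597 and 3446 under purmorphamine. In deposited reads this was 1.16 times the vehicle mean (fitted log2 fold change 0.17, 95% interval 0.07 to 0.27, adjusted p = 0.00766 from edgeR). Of all genes tested, 55.0% changed further than Cdon, and 31.5% changed further than Boc. In an exact permutation test with 35 possible assignments (two-sided, on log2 reads after TMM scaling), p was 0.0286 for Boc, the smallest the design allows, and 0.0571 for Cdon. Ptch1, Hhip, Gas1 and Scube3 also gave 0.0286 in the exact permutation test.

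Scube3, a secreted protein of the family that helps release Hedgehog ligand (ENSMUSG00000038677, plus strand of chromosome 17, bases 28142141 to 28174854), had 344, 335 and 343 reads under vehicle and 30, 28, 23 and 16 under purmorphamine. The groups did not overlap, with the highest purmorphamine library at 30 reads and the lowest vehicle library at 335. Its mean went from 341 ± 4.93 to 24.2 ± 6.24 reads, a ratio of 14.05 in deposited reads, with a fitted log2 fold change of -3.85 (95% interval -4.13 to -3.57, adjusted p = 4.43e-13 from edgeR). Of all 12388 genes tested, 0.307% had a larger fitted change in either direction and 12 fell at least as far, Scube3 included. Its level per kilobase went from near that of Ptch1 to 2.74 ± 0.705, which overlapped the level of Gpc3 (2.14 ± 0.766) under purmorphamine.

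Lrp2 and Gpc3 had too few reads to pass the filter. Lrp2 (ENSMUSG00000027070, minus strand of chromosome 2, bases 69424340 to 69586065) had 17, 15 and 10 reads under vehicle and 5, 4, 2 and 4 under purmorphamine. All 4 purmorphamine libraries were below the 3 vehicle libraries (exact permutation test, two-sided, p = 0.0286), and with no filter edgeR gave it a log2 fold change of -1.91 (adjusted p = 0.000623, standard error 0.415). Gpc3 (ENSMUSG00000055653, minus strand of chromosome X, bases 52272426 to 52613950) had 6, 1 and 3 reads under vehicle and 8, 4, 7 and 4 under purmorphamine. A difference in Gpc3 was not detectable at this depth (exact permutation test, two-sided, p = 0.2). Under purmorphamine the order per kilobase was thus Gas1 (4592 ± 119), Boc (1052 ± 46.4), Ptch1 (770.0 ± 33.5), Cdon (473 ± 25.7), Hhip (18.2 ± 2.80), Scube3 and Gpc3 together, and Lrp2 (0.225 ± 0.0753). Per kilobase of exon, Ptch1 had moved from the level of Scube3 to one between Boc and Cdon. With the longest transcript in place of all exons, Ptch1 and Boc both stood at 1052 reads per kilobase.

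**Figure D2:**
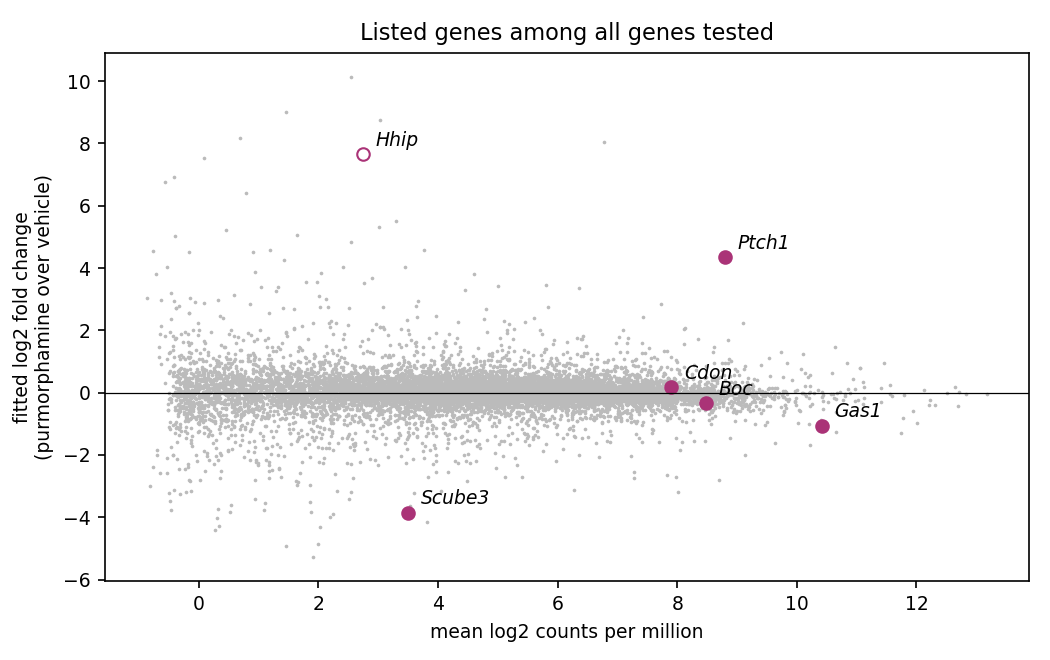
Fitted log2 fold change (purmorphamine over vehicle) against mean log2 CPM for all 12388 genes tested (grey) and the 6 listed genes that passed the filter (magenta). Ptch1 lay at 4.34, Gas1 lay at the high end of expression at -1.06, and the open point for Hhip is a fitted value that depends on the prior count.

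The balance between feedback genes and co-receptors was set out as the sum of Ptch1 and Hhip against the sum of Boc, Cdon and Gas1, each in reads per kilobase. The feedback genes came to 37.3, 37.6 and 35.5 in the vehicle libraries and to 823, 748, 793 and 790 in the purmorphamine libraries. The co-receptors came to 10883, 10827 and 11241 under vehicle and to 6089, 6388, 5989 and 5999 under purmorphamine. Both sums moved, in opposite directions, and neither overlapped between the groups. For each feedback transcript per kilobase there were 299 ± 15.5 of co-receptor under vehicle (SD, n = 3) and 7.77 ± 0.521 under purmorphamine (SD, n = 4). On the log2 scale the ratio of feedback to co-receptor went from -8.22 ± 0.074 to -2.96 ± 0.0939, a difference of 5.26, and no p is given for a sum over chosen genes. Co-receptor transcripts still outnumbered feedback transcripts in every library.

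The ratio moved mostly through Ptch1. With Hhip left out the difference was 5.23, and with Gas1 left out of the co-receptors it was 4.57. Taken gene by gene, the log2 ratio of Ptch1 to Cdon per kilobase went from -3.46 ± 0.0495 to 0.70 ± 0.13, so that Ptch1 passed Cdon. The ratio of Ptch1 to Boc went from -5.12 ± 0.0825 to -0.45 ± 0.11. Whether Ptch1 reached Boc depended on the length used, since per kilobase of the longest transcript both stood at 1052 reads under purmorphamine. The ratio of Ptch1 to Gas1 went from -7.98 ± 0.0711 to -2.58 ± 0.0957 and stayed below 0. Within the co-receptors, the share of Gas1 went from 84.6% ± 0.0786 to 75.1% ± 0.41, while that of Boc went from 11.7% ± 0.104 to 17.2% ± 0.307 and that of Cdon from 3.70% ± 0.0588 to 7.72% ± 0.212. The share of Boc was thus higher under purmorphamine although its own reads fell.

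**Figure D3:**
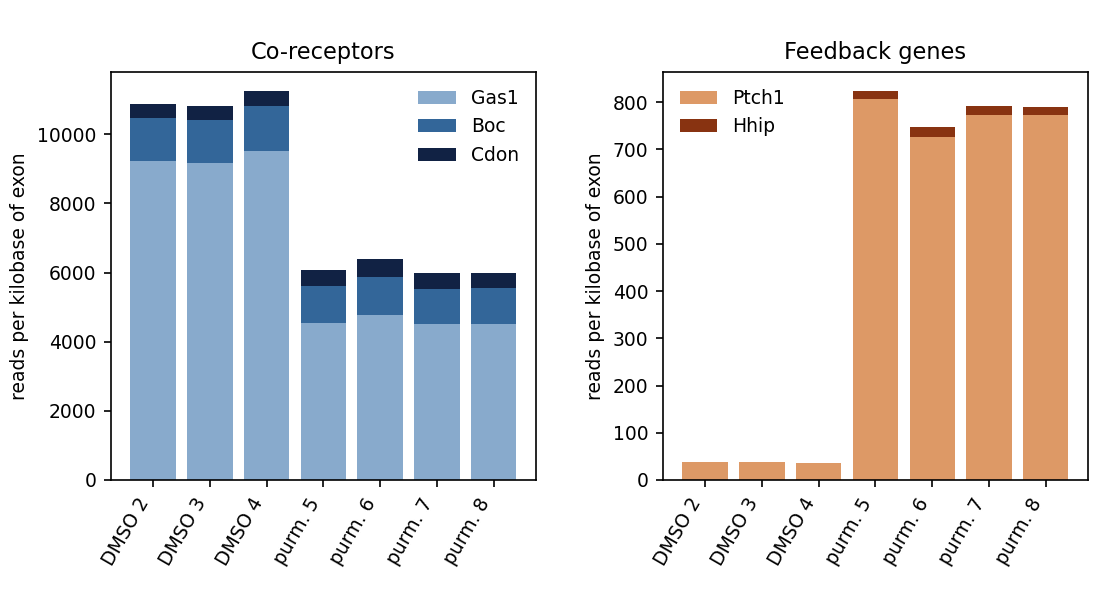
Reads per kilobase of exon in each library, stacked by gene, for the co-receptors (left, Gas1, Boc and Cdon) and the feedback genes (right, Ptch1 and Hhip), on linear axes that differ between the panels. The co-receptor sum was 5989 to 6388 under purmorphamine (purm.) and 10827 or above with DMSO, and the feedback sum was 747.5 or more under purmorphamine and below 38 with DMSO.

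The other genes of the pathway were taken as a list of 29, of which 26 had a row and 20 passed the filter. Of these 10 rose, 5 fell and 5 were not called, beside 31.4% of all genes tested that rose and 31.1% that fell. The median log2 fold change of the 20 pathway genes was 0.14. Ihh and Dhh, the Hedgehog ligands with a row, had almost no reads. Shh was not analysed here, and no library had more than 2 reads of Ihh or 1 of Dhh. Hhat, which attaches the palmitate that Hedgehog ligands carry, rose from 103 ± 7.23 to a mean of 179 reads (log2 fold change 0.75, adjusted p = 2.72e-05 from edgeR). Scube2, a relative of Scube3, had 237, 287 and 314 reads under vehicle and 231, 226, 201 and 209 under purmorphamine. It fell less than Scube3, with a log2 fold change of -0.41 (adjusted p = 0.00236 from edgeR), and the difference between these genes was not tested. Disp2, a relative of Disp1, had at most 1 read in any library.

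The glypicans, heparan sulfate proteins of the cell surface to which Gpc3 belongs, moved in both directions. Gpc4 rose from 2180, 2160 and 2271 reads to 4678, 4900, 4712 and 4667 (log2 fold change 1.06, adjusted p = 6.22e-12 from edgeR). Gpc6 fell from 4705, 4682 and 4762 reads to 1641, 1459, 1662 and 1799 (log2 fold change -1.57, adjusted p = 8.93e-13 from edgeR). The groups were well separated in both genes. Gpc2 fell from a mean of 27.3 to one of 12.5 reads (log2 fold change -1.17, adjusted p = 0.000801 from edgeR), and its exons share 2376 bases with Gm43720 on the same strand, so that reads of these genes cannot be told apart there. Gpc1 was not called, with a log2 fold change of 0.07 (95% interval -0.07 to 0.20), and Gpc5 had at most 1 read. Per kilobase of exon the sum of the 6 glypicans was 1856 ± 35.4 under vehicle and 2354 ± 42.8 under purmorphamine. That sum depends on the length used. Under vehicle Gpc4 was at 831 ± 22.3 and Gpc6 at 734 ± 6.41 per kilobase of exon. Their order depended on the length, since with the longest transcript Gpc4 was at 831 and Gpc6 at 1138 reads per kilobase. Under purmorphamine Gpc4 was at 1788 ± 41.1 and Gpc6 at 255 ± 21.7 per kilobase of exon. With the longest transcript they were at 1788 and 396, so Gpc4 was above Gpc6 with either length.

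Downstream of the receptors, 7 of the 13 genes for signal transduction rose, 2 fell and 4 were not called. Among all genes tested, 31.4% rose and 31.1% fell. Gli1, the transcription factor that is itself a target of the pathway, had 7 to 12 reads under vehicle and 2522 to 3171 under purmorphamine (log2 fold change 8.05, adjusted p = 1.45e-16 from edgeR). Gli2 rose with a log2 fold change of 1.31, and Smo by a smaller 0.29. Gli3 had a log2 fold change of -0.11 (adjusted p = 0.0648 from edgeR), was not past 0.05, and its groups overlapped in the reads as deposited. Kif7, Evc, Evc2 and Spop rose by log2 fold changes between 0.21 and 0.49. Sufu, Gpr161, Grk2 and Mgrn1 were not called.

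**Figure D4:**
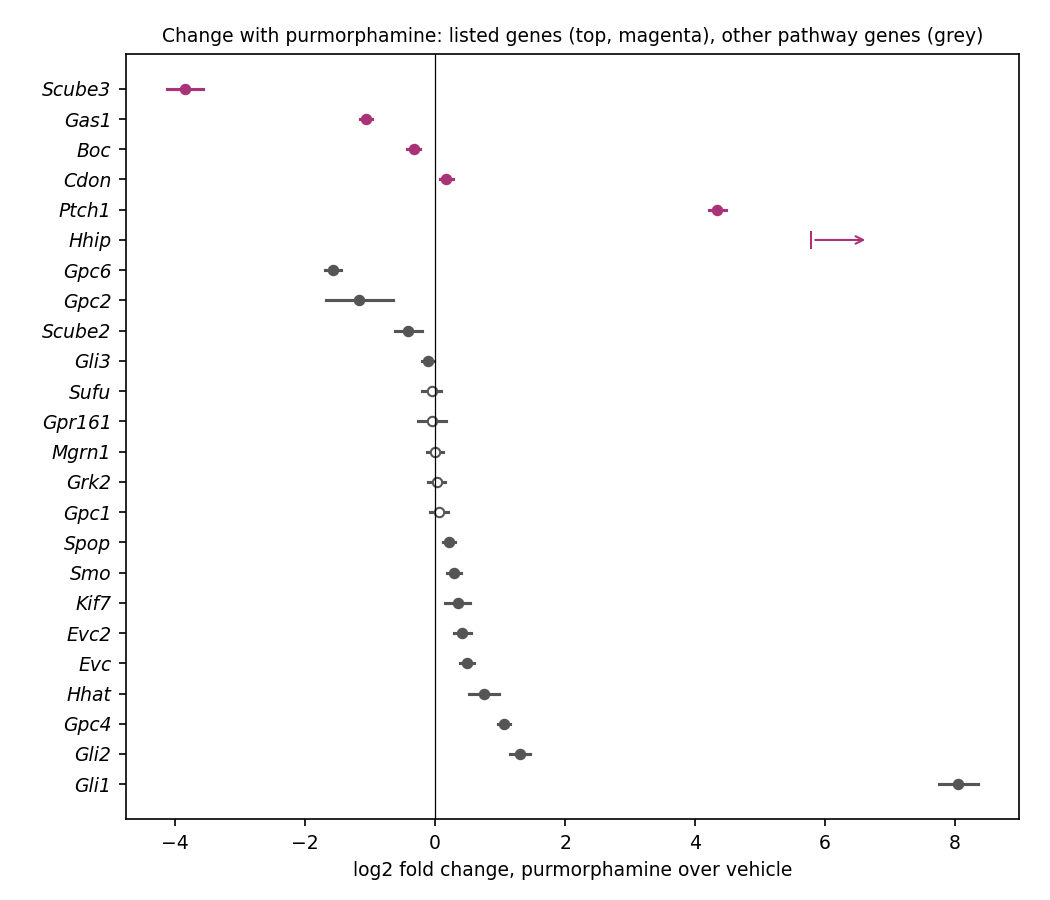
Log2 fold change with its 95% interval for the 6 listed genes (magenta) that passed the filter and for other genes of the pathway (grey); filled points were called at an adjusted p under 0.2, open points were not, and the arrow starts at the bound for Hhip. Changes among the listed genes ran from -3.85 for Scube3 to 4.34 for Ptch1 and the bound for Hhip, and the other genes shown ran from -1.57 for Gpc6 to 8.05 for Gli1.

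The genes whose log2 CPM were most like those of Ptch1 over the 7 libraries, by Pearson correlation over 10667 genes whose mean reached 50 reads, were Sostdc1, Klf4, Foxd1, Sgms2 and Grb14 (r from 0.9993 to 0.9996). For Gas1 they were 9930013L23Rik, Angptl1, Sfrp1, Cav2 and Pgm5 (r from 0.9987 to 0.9995). The 7 points fall into the 2 treatments, and 217 genes had an r over 0.99 with Ptch1 and 206 with Gas1, so a high r is common here. Sostdc1 had 0 reads in each vehicle library and 115 to 156 under purmorphamine. It thus reached the mean of 50 reads only through the group where it was high. Klf4 had 650 to 657 reads under vehicle and 4762 to 4986 under purmorphamine (log2 fold change 2.86). Sfrp1, a secreted Wnt antagonist, had 7744 to 8239 reads under vehicle and 2638 to 2908 under purmorphamine (log2 fold change -1.57).

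The label of the cells was checked against markers. All 10 mesenchymal markers had reads in every library and passed the filter. Of these 6 rose, 2 fell and 2 were not called, beside 31.4% of all genes tested that rose and 31.1% that fell. Vim had 80155 ± 1150 reads under vehicle and 42480 ± 843 under purmorphamine (log2 fold change -0.96, adjusted p = 1.73e-11 from edgeR), and Pdgfra had 10813 ± 254 and 18903 ± 400 (log2 fold change 0.76, adjusted p = 3.92e-10 from edgeR). Of the 5 epithelial markers, 3 had a row. Their sum was 14 to 23 reads under vehicle and 111 to 136 under purmorphamine, nearly all of it Cdh1, which rose, while Krt8 and Krt14 had at most 1 read. Endothelial markers summed to 781 to 821 and 1898 to 2154 reads, nearly all of it Tek, and Cdh5 went from 0 reads in each vehicle library to 21 to 26, whereas Pecam1 and Kdr had at most 5 reads. Blood markers summed to 53 to 57 and 55 to 75 reads, and Ptprc had at most 1 read. The part of these genes in the changes above was not tested. In these bulk libraries, fewer cells with a transcript and fewer transcripts per cell cannot be told apart.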

How the data were processed

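RNA of 7 libraries, 3 with vehicle and 4 with purmorphamine, was sequenced by the authors from stranded, ribosomal RNA-depleted preparations. The submitters' processing notes name STAR 2.5.3a and the genome build mm9. The authors resampled the reads to equal numbers and deposited sense-strand counts per gene, which are whole numbers with no other scaling. The annotation is not given in the sources used here. Groups were taken from the labels and every per-sample column was used.

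On these counts edgeR 4.0.16 (R 4.3.3) was used with TMM factors (0.978 to 1.02), its default filter (a minimum of 10 counts, scaled to library size, with 15 in total) and a quasi-likelihood test with no covariates and Benjamini-Hochberg adjustment. Intervals are 95% from the fold change and its standard error. The study used limma-voom, run here as an alternative (limma 3.58.1), with DESeq2 1.42.0. Single genes were also compared by an exact permutation test (35 assignments, log2 of TMM-scaled reads plus 1). Where no library of a group had over 3 reads, a bound is given, which covers counting error only, whereas the intervals include the spread between libraries. Levels per kilobase used the exon bases of GENCODE M21 (GRCm38), matched by Ensembl identifier for 95.5% of genes, and the table's own mm9 coordinates were not used.

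The listed genes and the gene lists were chosen with earlier results of these data known. Genes named are the 9 listed, Disp2, Scube1, Scube2, glypicans, ligands, Smo, Gli1, Gli2 and Gli3, and the 5 genes most like Ptch1 and Gas1. Scube1 and Hhipl2 were not analysed here, and some genes counted in the pathway list are not reported here by name. Other pathway genes, markers and genes of high level were named to explain a count, after their values were seen. The calculations were tested on simulated data. Libraries of a group differed by more than sampling noise (mean chi-square per gene of 2.13 to 8.44), so none was counted as a copy.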

Additional observations from a re-analysis of the deposited data

Results flagged for a closer look

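Within the purmorphamine group, 1 library stood apart from the other three for Gpc1 and for Gpr161. The distance to the next library, on TMM-scaled reads, was 0.851 of the whole range for Gpc1, where replicate 7 was lowest (1343 reads against 1633 to 1685 in the others), and 0.929 of the range for Gpr161, where replicate 8 was lowest (148 reads against 182 to 187). Neither gene was called in the comparison. Of 26 genes examined these 2 exceeded the critical share of 0.829, and chance gives about 1 in 20. None of the genes Ptch1, Hhip, Boc, Cdon, Gas1 and Scube3 was among them.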

How the results depend on the processing

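No paired analysis was possible because replicate numbers differ between vehicle and purmorphamine. Settings tried were other scaling, DESeq2, limma-voom, other filters, stricter thresholds and leaving out 1 library at a time. The log2 fold changes of Ptch1 (4.32 to 4.39), Gas1 (-1.08 to -1.02), Scube3 (-3.96 to -3.69), Boc (-0.35 to -0.28) and Cdon (0.15 to 0.22) kept their direction in all of them, as did Hhip wherever it was tested. Boc and Cdon were past an adjusted p of 0.05 throughout but did not reach a change of 1.5-fold, which left 2 listed genes that rose and 2 that fell. With that fold, 5 other pathway genes rose and 2 fell, by the construction of the threshold. The shares of all genes tested past 0.05 or past that fold were not counted, so these counts have no background beside them. With at least 10 counts in every library Hhip was not tested. Lrp2 was tested, and fell, with no filter and without DMSO replicate 4. With each library left out in turn, 3 listed genes rose and 3 to 4 fell, 10 to 11 other pathway genes rose and 4 to 6 fell, and the difference in log2 ratio of feedback to co-receptor ran from 5.22 to 5.31. That difference, 5.26 as given, was 5.14 in reads with no division by length, 4.57 without Gas1, and 5.25 with the longest transcript, a length chosen after the data were seen. Using library totals in place of TMM moved the median log2 fold change of all genes from 0.0038 to 0.051, and increases went from 3887 to 4650 genes and decreases from 3854 to 3163. Depth limits what can be said of Gpc3, Lrp2, Disp2, Ihh and Dhh.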
